A study of Mus musculus with 2 samples.

Results

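The genes described here encode the MHC class I heavy chains of the mouse, their light chain, and the proteins that load them with peptide. They were chosen by symbol: every H2 gene of the K, D, L, Q, T and M regions, together with B2m, Tap1, Tap2, Tapbp, Erap1, Calr and Pdia3. The rule found 36 of the 23123 gene symbols in the 2 libraries, 29 heavy chain genes and 7 others, and where a gene has several transcript lines the one with the highest average stands for it. Both libraries hold RNA of medullary thymic epithelial cells (mTEC), the stromal cells that display self antigens to thymocytes, isolated by flow cytometry from the thymi of several wild-type B6 mice pooled together; their number, age and sex are not stated. One group had high surface MHC class II (mTEChi) and the other low (mTEClo), with no other treatment and 1 library each. Reads of mTEChi were paired and 100 bases long, and those of mTEClo were unpaired and 50 bases long. With 1 library a group no difference has a replicate check, so no test was made and every value below describes these 2 pools.

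Class I molecules show peptides made inside the cell to CD8 T cells. The heavy chain pairs with B2m in the endoplasmic reticulum, where calreticulin (Calr) and the oxidoreductase Pdia3 hold it. Tapasin (Tapbp) then bridges it to the peptide pump made of Tap1 and Tap2, and the aminopeptidase Erap1 trims peptides to length. In the thymic medulla this display lets developing CD8 T cells be tested against self. The K and D genes encode the classical molecules, whereas many Q, T and M genes encode non-classical ones with narrow roles or narrow tissue ranges.

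The promoter sequences of 6 genes are shown first, because they set the classical chains beside the light chain and beside Q region genes that were even (H2-Q7) or far apart (H2-Q10, H2-Q2) between the libraries. Of the 36 genes 28 matched a window of RefSeq (build GRCm38.p6, a later build than the mm9 the submitters name), and the 250 bases before the start are printed 5′ to 3′. Capitals mark 4 motifs on either strand: GGGGANTCCCC, the NF-kappaB element of the class I enhancer; GTTTCACTTCT, its interferon-stimulated response element (ISRE); TGACG, the core of a cyclic AMP response element (CRE); and CCAAT, the NF-Y box. No motif overlapped another kind in any of the 28 windows.
H2-K1 (chr17:34000334-34000583, minus strand): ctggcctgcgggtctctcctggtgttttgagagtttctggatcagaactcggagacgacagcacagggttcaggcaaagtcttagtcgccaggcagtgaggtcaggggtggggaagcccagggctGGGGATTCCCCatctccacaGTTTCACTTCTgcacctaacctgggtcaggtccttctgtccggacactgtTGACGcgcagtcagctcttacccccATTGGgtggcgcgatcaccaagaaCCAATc
H2-D1 (chr17:35262844-35263093, plus strand): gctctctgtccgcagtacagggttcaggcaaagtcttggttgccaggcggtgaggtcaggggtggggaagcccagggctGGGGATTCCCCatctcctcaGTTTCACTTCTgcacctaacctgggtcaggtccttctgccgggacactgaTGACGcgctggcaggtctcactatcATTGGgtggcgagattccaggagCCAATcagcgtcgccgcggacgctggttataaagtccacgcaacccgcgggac
H2-Q7 (chr17:35438905-35439154, plus strand): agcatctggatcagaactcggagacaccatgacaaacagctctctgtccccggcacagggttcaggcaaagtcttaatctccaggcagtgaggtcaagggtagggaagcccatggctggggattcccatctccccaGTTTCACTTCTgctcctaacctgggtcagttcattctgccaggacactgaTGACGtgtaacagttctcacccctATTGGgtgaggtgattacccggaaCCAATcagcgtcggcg
H2-Q10 (chr17:35469839-35470088, plus strand): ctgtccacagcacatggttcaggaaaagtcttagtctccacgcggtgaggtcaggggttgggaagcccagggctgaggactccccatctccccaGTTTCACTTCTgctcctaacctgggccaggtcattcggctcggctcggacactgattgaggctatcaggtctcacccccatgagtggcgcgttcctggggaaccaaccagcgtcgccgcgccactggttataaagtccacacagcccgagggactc
H2-Q2 (chr17:35342057-35342306, plus strand): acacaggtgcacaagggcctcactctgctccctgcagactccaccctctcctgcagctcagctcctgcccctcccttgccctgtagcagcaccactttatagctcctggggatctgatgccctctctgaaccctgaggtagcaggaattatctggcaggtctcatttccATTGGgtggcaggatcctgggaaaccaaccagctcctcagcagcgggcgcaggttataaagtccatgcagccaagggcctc
B2m (chr2:122147437-122147686, plus strand): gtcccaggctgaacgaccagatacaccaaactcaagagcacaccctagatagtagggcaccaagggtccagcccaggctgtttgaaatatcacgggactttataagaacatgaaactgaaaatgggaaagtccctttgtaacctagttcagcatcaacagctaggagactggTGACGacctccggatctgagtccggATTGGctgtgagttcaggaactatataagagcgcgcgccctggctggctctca

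H2-K1 and H2-D1 carried all 4 motifs, and no other window among those of 27025 genes did. The NF-kappaB letters stood in 0.0407% of all windows and in 3 of the 28, H2-K1, H2-D1 and H2-Q6. The ISRE letters stood in 0.0555% of all windows and in 7 of the 28, H2-K1, H2-D1, H2-Q4, H2-Q6, H2-Q7, H2-Q10 and H2-M3. TGACG was found in 17.5% of all windows and in 14 of the 28, and CCAAT in 34.03% and 24 of the 28. H2-Q10 kept the ISRE, held neither TGACG nor CCAAT, and its closest stretch to the NF-kappaB letters had 1 mismatch. H2-Q7, H2-Q4, H2-M3 and Calr also had 1 mismatch to the NF-kappaB letters. H2-Q2 held only a CCAAT box, and its closest stretches had 3 mismatches to the NF-kappaB and 3 to the ISRE letters. The NF-kappaB and ISRE letters were read from the H2-K1 window after it was seen. Its own match, and the choice of letters, are therefore no finding. Class I genes are near copies of each other, so matches in their other windows are not independent of that match. The shares of all windows are thus no measure of enrichment for these 2 motifs. H2-T3, H2-M5 and Erap1 held none of the 4 motifs. Exact letters pass over close stretches: H2-T3 and H2-M2 had 1 mismatch to the ISRE letters, and H2-T22 had 2. B2m had 3 mismatches to the NF-kappaB letters. No relation between these letters and the RNA changes was tested. A match is a stretch of letters and not a binding site.

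**Figure D1:**
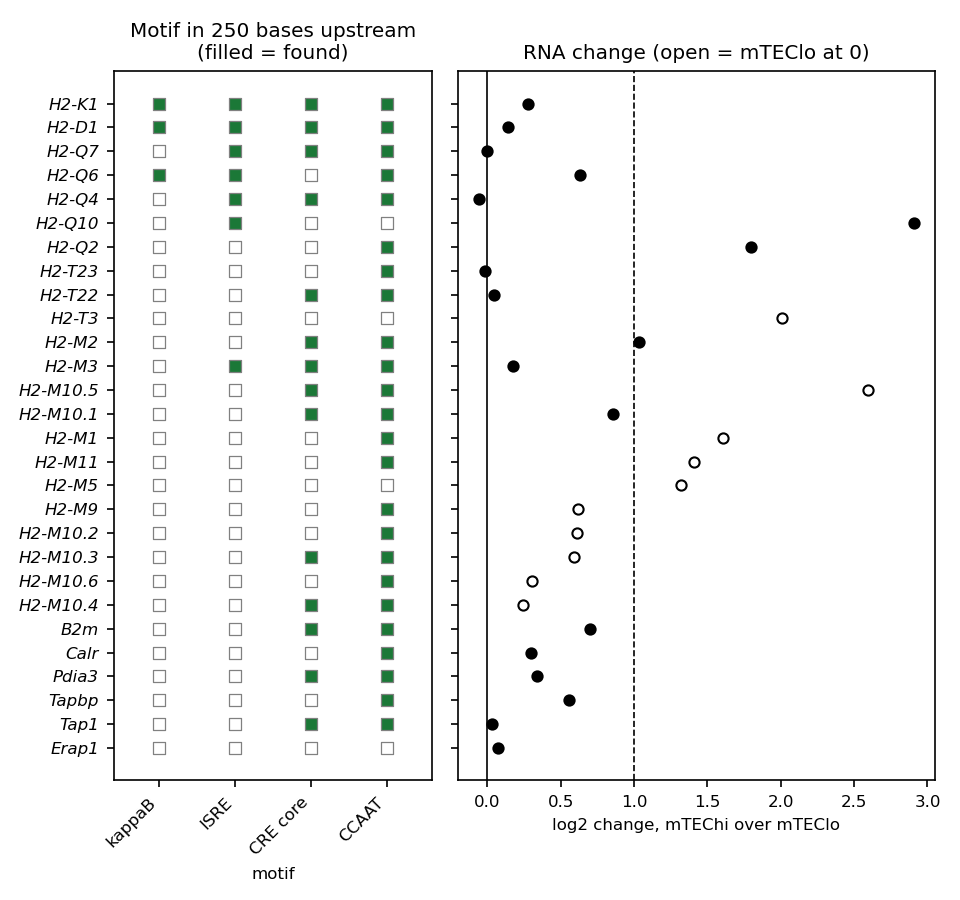
Left, the motifs found (filled squares) in the 250 bases upstream of 28 class I genes; right, the log2 change of each gene's RNA between the mTEChi and mTEClo libraries, with open circles for genes listed at 0 in mTEClo and a dashed line at 2-fold. H2-K1 and H2-D1 carry all 4 motifs and lie at 0.28 and 0.14. H2-Q10 and H2-T23 carry 1 kind each and lie at 2.91 and -0.02, and Erap1 with none lies at 0.07.

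The classical chains and the loading genes differed little between the libraries beyond the shift of all genes, while a subset of non-classical heavy chains stood well above it in mTEChi. Levels are in RPKM, reads per kilobase of transcript scaled to the size of the library, as the authors computed them. A change is log2 of (mTEChi + 1) over (1.21 x mTEClo + 1), where the factor 1.21 (0.27 on the log2 scale) sets the median ratio of 5167 well-expressed genes to 0. A gene was kept where its average over both libraries reached 0.5 RPKM, which 31 of the 36 did, and a change of 1 (2-fold) was the threshold. Of the 31, 10 were at least 2-fold higher in mTEChi and 0 were 2-fold lower, against 16.1% and 9.35% of 15590 kept genes. All 10 were non-classical heavy chains. Of the 10, 5 were listed at 0 in mTEClo, where a gene that passes the filter lies at or above 2-fold by construction. Among the 26 kept genes above 0 in both libraries 5 were 2-fold higher (19 of the 26 are heavy chains), against 11.4% higher and 9.85% lower of 14757 such genes. The median change was 0.55 over the 31 and 0.29 over the 26, beside 0.03 and -0.02 over all genes of each kind.

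**Figure D2:**
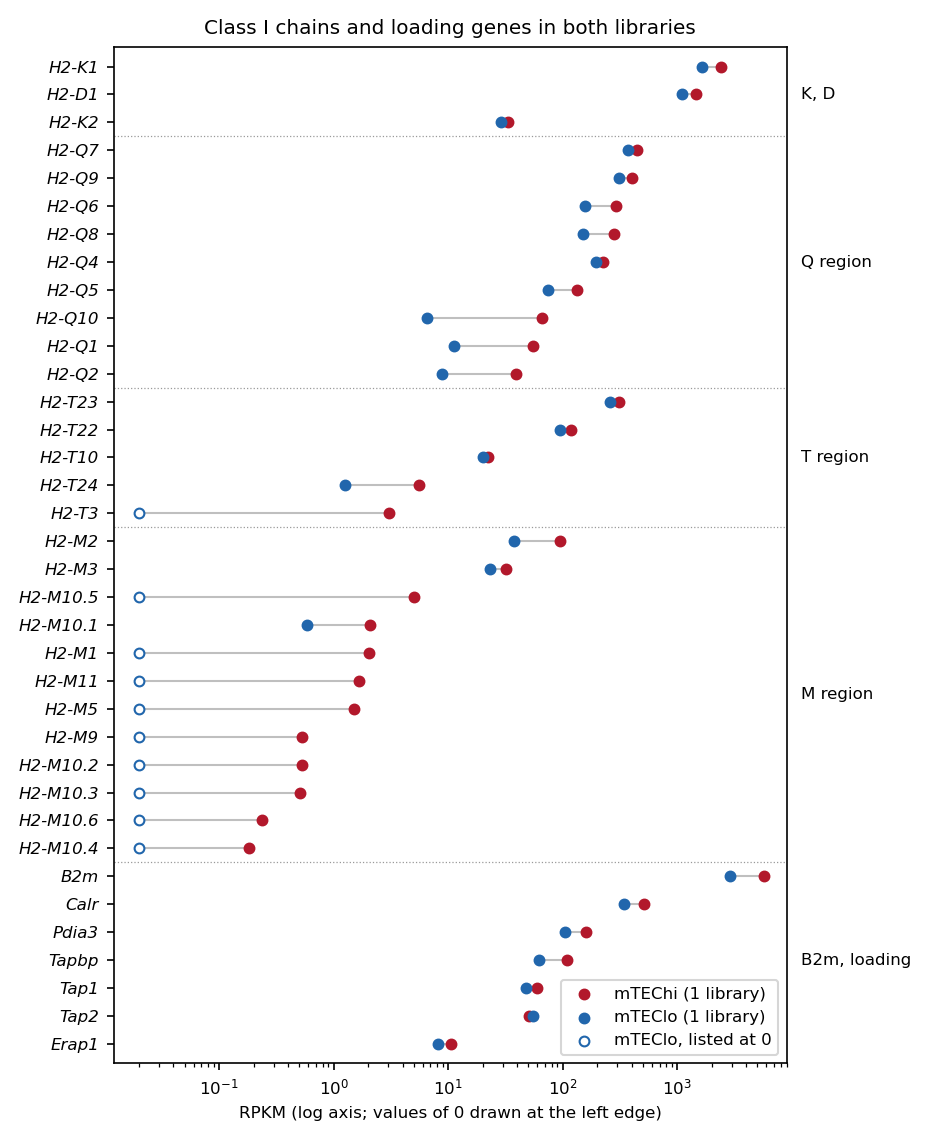
RPKM of the 36 genes (log axis) in the mTEChi library (red) and the mTEClo library (blue), grouped by region, with open circles at the left edge for values of 0. The red and blue points of H2-K1, H2-D1, H2-T23 and Tap1 lie close together, H2-Q10, H2-Q1 and H2-Q2 are far apart, and 10 genes of the T and M regions are at 0 in mTEClo.

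H2-K1, a classical heavy chain, had 2426 RPKM in mTEChi and 1656 RPKM in mTEClo. It ranked 5 and 22 among all genes by level. Its change was 0.28, and the counting interval (95%) of the scaled log2 ratio without pseudocount ran from 0.26 to 0.29. H2-D1, the other classical chain of this strain in the files, had 1467 against 1102 RPKM, ranks of 11 and 32, and a change of 0.14. Both were thus higher in mTEChi by less than 2-fold, and the ratio of H2-K1 to H2-D1 within a library was 1.65 in mTEChi and 1.502 in mTEClo. H2-K2, a transcribed pseudogene in RefSeq, had 33.1 against 29.1 RPKM and a change of -0.09. Intervals rest on reads recovered from the values, treated as independent, and cover counting error only. Reads of mTEChi are paired, and whether both reads of a pair were counted is not stated. If they were, the intervals are too narrow.

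B2m, the shared light chain, was the most abundant gene of the family and moved further than either classical chain. It had 5703 RPKM in mTEChi and 2905 RPKM in mTEClo, ranks 2 and 5, and a change of 0.70. Its interval ran from 0.69 to 0.71. The heavy chain genes summed to 6465 RPKM in mTEChi and 4505 RPKM in mTEClo. These sums include H2-Q8 and H2-Q9, whose values are not independent of H2-Q6 and H2-Q7 (below). The sums, quotients and shares of heavy chains given here may therefore count the same reads more than once. The heavy chain sum divided by B2m, which no scaling between libraries alters, was 1.13 in mTEChi and 1.55 in mTEClo. The ratio of these quotients was 0.731, and 0.728 without H2-Q8 and H2-Q9, a choice made after seeing the data. With H2-K1 and H2-D1 alone it was 0.683 against 0.950, a ratio of 0.719. H2-K1 and H2-D1 made up 60.2% of the heavy chain sum in mTEChi and 61.2% in mTEClo. All 36 genes together took 3.82% of the RPKM sum in mTEChi and 2.56% in mTEClo, with B2m at 1.67% against 0.928%.

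The 6 loading genes lay between -0.37 and 0.55, and none reached 2-fold. Tapbp, the tapasin gene, was highest among the 6 by change, at 0.55, with 110.04 against 61.8 RPKM. Calr had 511 against 343 RPKM (change 0.30) and Pdia3 had 160 against 104 RPKM (0.34). The subunits of the peptide pump differed from each other. Tap1 had 59.6 against 48.1 RPKM (0.03), and Tap2 had 50.8 against 54.7 RPKM (-0.37). Tap2 was the single gene of the 36 with a lower unscaled value in mTEChi, and the Tap1 to Tap2 ratio was 1.17 in mTEChi and 0.880 in mTEClo. Erap1 was the scarcest loading gene, with 10.51 against 8.23 RPKM (0.07).

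Of the 9 Q region genes, 6 lay within 2-fold and 3 beyond it. H2-Q7, which encodes Qa-2, had 448 against 371 RPKM, a change of 0.00. H2-Q4 had 225 against 194 RPKM (-0.06). H2-Q6 had 291 against 155 RPKM (0.63), and H2-Q5, a transcribed pseudogene in RefSeq, had 134 against 74.7 RPKM (0.56). H2-Q8 (282 against 151 RPKM) added nothing to H2-Q6: the ratio of the 2 lines was 0.970 in both libraries, with a tolerance of 1e-06. A line of H2-Q7 and that of H2-Q9 (401 against 310 RPKM) likewise kept a ratio of 0.990. Neither pair gives 2 independent measurements. Leaving out H2-Q8 and H2-Q9, a choice made after seeing the data, left the count of 2-fold higher genes at 10 and the median at 0.55.

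H2-Q10, H2-Q1 and H2-Q2 were the Q genes past 2-fold. H2-Q10, known for a class I molecule that the liver secretes, had 65.4 RPKM in mTEChi and 6.50 RPKM in mTEClo. Its change of 2.91 was the largest of the family, and the interval of its scaled ratio ran from 2.85 to 3.26. H2-Q1 had 55.3 against 11.1 RPKM, a change of 1.96 and an interval from 1.91 to 2.18. H2-Q2 had 39.4 against 8.80 RPKM, a change of 1.80 and an interval from 1.70 to 2.08. The values of H2-Q10 rest on 11046 recovered reads in mTEChi and 200 in mTEClo.

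Of the 5 T region genes, 3 were near the classical chains and 2 were not. H2-T23 encodes Qa-1, which shows leader peptides of other class I chains to NK cell receptors, and had 309 against 259 RPKM (-0.02). H2-T22, a ligand of some gamma delta T cell receptors, had 117 against 94.03 RPKM (0.04). H2-T10, its close relative, had 22.2 against 19.96 RPKM (-0.12). H2-T24 was apart from these with 5.60 against 1.25 RPKM, a change of 1.40 and an interval from 1.51 to 2.30 without pseudocount. H2-T3, which encodes the thymus leukaemia antigen known from gut epithelium and thymocytes, had 3.01 RPKM in mTEChi and was listed at 0 in mTEClo.

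M region genes ranged from well expressed to barely detected. H2-M2 was the highest of the 12 with 94.2 against 37.6 RPKM, a change of 1.04 that is 0.98 with a pseudocount of 5 RPKM. H2-M3, which presents N-formylated peptides of bacteria and mitochondria, had 31.7 against 23.1 RPKM (0.18). H2-M5 had 1.496 RPKM in mTEChi and was listed at 0 in mTEClo. The other 9 belong to the M1 and M10 families, known from pheromone-sensing neurons of the vomeronasal organ (they were grouped after their values were seen). All 9 were above 0 in mTEChi, from 0.184 RPKM for H2-M10.4 to 5.04 RPKM for H2-M10.5, and summed to 12.8 RPKM. H2-M1 had 2.04 RPKM and H2-M11 had 1.65 RPKM in mTEChi, and both were listed at 0 in mTEClo. In mTEClo 1 of the 9 was above 0, H2-M10.1 with 0.587 RPKM against 2.09 in mTEChi. Its change of 0.85 has a wide interval without pseudocount, from 0.86 to 2.36, since mTEClo held 17 reads.

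The 10 genes listed at 0 in mTEClo were H2-T3, H2-M5 and 8 of the M1 and M10 families, of which H2-T3, H2-M5, H2-M1, H2-M11 and H2-M10.5 passed the filter. The values imply about 1.15e+08 reads for mTEChi and 2.09e+07 for mTEClo, a ratio of 5.50. From the mTEChi values and this depth, the 10 genes would have between 3.16 reads (H2-M10.4) and 120 reads (H2-M10.5 and H2-T3) in mTEClo at an equal scaled level, and 5 of them 20 or more. A count of 0 allows 3 reads, or between 0.0622 and 0.144 RPKM for these lengths. An entry of 0 need not mean absence of RNA. The ribosomal protein gene Rps21, used by every cell, was listed at 144 RPKM in mTEChi and at 0 in mTEClo. The changes of the 10 genes rest on the pseudocount and are therefore not quoted singly. They are drawn in the figures, and the 5 that passed the filter enter the count of 10 and the median of 0.55. Of all kept genes 829 (5.32%) were at 0 in mTEClo, beside 16.1% of the 31.

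**Figure D3:**
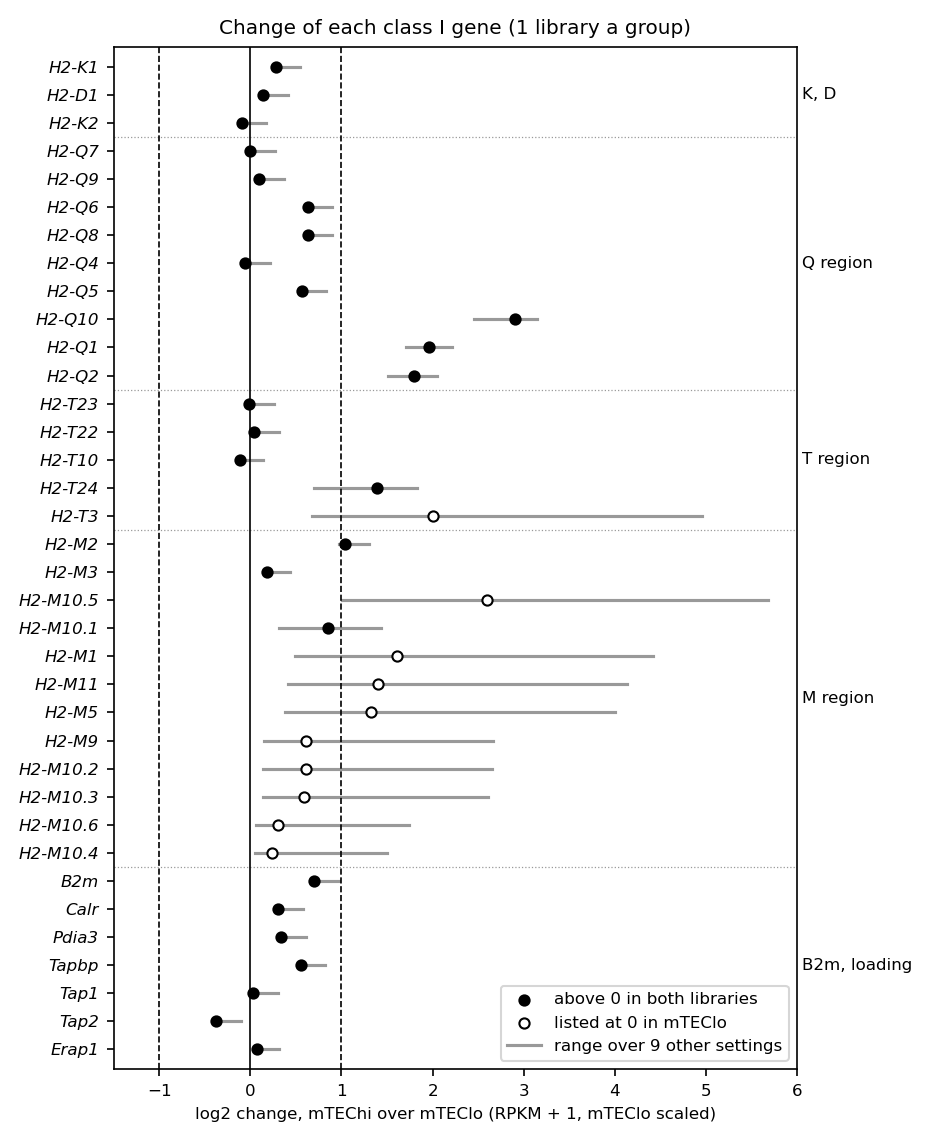
The log2 change of each gene, mTEChi over mTEClo on RPKM plus 1 with mTEClo scaled by 1.21; open circles are genes listed at 0 in mTEClo, grey bars span 9 other settings, and dashed lines mark 2-fold. The classical chains, B2m and the loading genes stay between -1 and 1, H2-Q10, H2-Q1 and H2-Q2 stay above 1, and the bars of genes at 0 are long. Filter settings cannot lengthen a bar, and the bars of genes at 0 come from the pseudocount alone.

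Class I genes are near copies of each other, which bears on how reads can be assigned, and the libraries differ in read length. The labels do not state how reads that match several genes were treated. A coding stretch of H2-K1 as long as a mTEClo read is shown because it is also found in transcripts of 15 other genes in GENCODE M21, H2-D1, H2-Q1, H2-Q2, H2-Q10 and H2-T23 among them. It is followed by the stretch within the first 600 coding bases of H2-K1 that is farthest from any of H2-D1, with its nearest match there. Capitals mark the 14 bases that differ, and positions count from the start codon.
H2-K1 most shared window, coding bases 673 to 722: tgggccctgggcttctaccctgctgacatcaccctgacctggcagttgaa
H2-K1 most different window, coding bases 484 to 533: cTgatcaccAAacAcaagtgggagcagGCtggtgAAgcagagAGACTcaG
H2-D1 most different window, coding bases 493 to 542: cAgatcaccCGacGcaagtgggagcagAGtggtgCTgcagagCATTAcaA

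Of the 27 heavy chain genes with a matched GENCODE transcript, a median of 10.9% of windows of 50 bases also stood in a transcript of another gene, and 0% of windows of 100 bases. Any other gene on either strand counted, so many partners of H2-T23 (172 genes) and H2-D1 (168 genes) are not class I genes. H2-Q8 had no matched transcript, and H2-Q7 and H2-Q9 were not counted as sharing with each other. The shares are therefore no direct measure of how far reads of class I genes can be told apart. At 50 bases the share was highest for H2-T22, with 44.7% (14.2% at 100 bases), and at 100 bases for H2-Q6, with 19.3% (36.8% at 50 bases). H2-K1 had 8.79% and 0%, H2-D1 14.3% and 4.64%, and H2-Q4 39.2% and 13.9%. Among the genes past 2-fold, H2-Q10 had 10.96% and 2.84%, H2-Q1 22.9% and 13.1%, and H2-Q2 8.74% and 0%. B2m shared no window at either length, and neither did Pdia3. Read length and group coincide here and cannot be told apart, and the part of shared reads in these values was not tested.

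**Figure D4:**
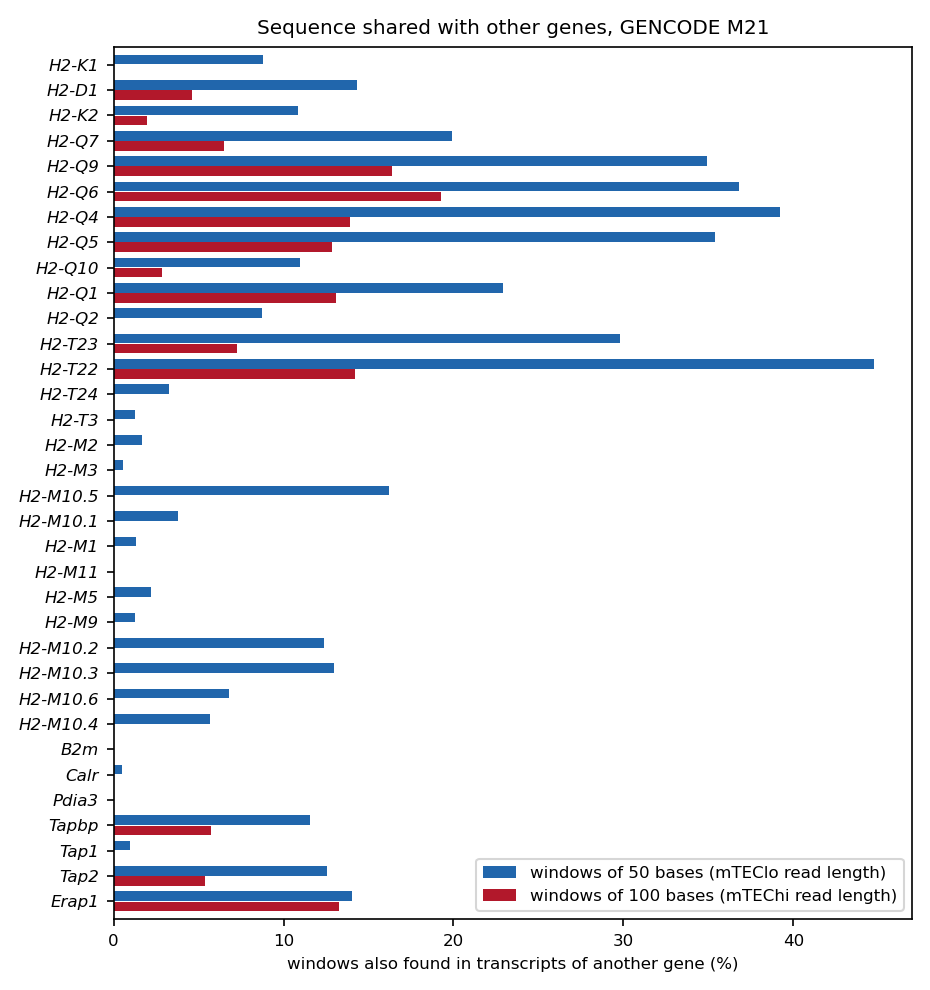
Share of windows (%) of each gene's GENCODE M21 transcript that are also found in transcripts of another gene, for windows of 50 bases (blue, the mTEClo read length) and 100 bases (red, the mTEChi read length). Q and T region genes have the longest bars, H2-T22 reaching 44.7% at 50 bases, and B2m has none.

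Genes of the same path outside the family were read from lists chosen by function. Of 22 further partners (chaperones, glycan-editing enzymes, peptidases, translocon and degradation genes), 21 were kept, with a median change of 0.13. Of these, 0 were 2-fold higher or lower, beside 16.1% higher and 9.35% lower of all kept genes. Tapbpl, a tapasin relative that edits peptides, had the highest positive change of them, 37.9 against 17.3 RPKM (0.82), and the lectin chaperone Canx had 41.4 against 26.0 RPKM (0.39). The chaperone Hspa5 had 390 against 325 RPKM (-0.01). Syvn1, a ubiquitin ligase of the endoplasmic reticulum, was the lowest at -0.90.

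The proteasome supplies the peptides, and its inducible parts and activators spread from -0.06 to 1.90. Of 6 immunoproteasome and activator genes 2 were 2-fold higher, Psme2 (116 against 25.0 RPKM, 1.90) and Psmb10 (143 against 53.9 RPKM, 1.13), where all kept genes had 16.1% higher, and the median was 0.84. Psmb8 had 150 against 84.5 RPKM (0.55). Psmb9, which lies beside Tap1 in the genome, had 107 against 92.7 RPKM (-0.06). The constitutive counterparts Psmb5, Psmb6 and Psmb7 lay between -0.49 and 0.48.

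Of 19 transcription factors known from class I promoters, 1 was 2-fold higher and 2 were 2-fold lower, beside 16.1% and 9.35% of all kept genes. Their median was -0.24, and 0.01 without scaling, so its sign depends on the scaling. Nlrc5, the class I transactivator, had 7.52 against 6.92 RPKM (-0.14), and Irf1, an interferon-induced activator, had 121 against 116 RPKM (-0.21). The NF-kappaB subunit gene Rela had 25.4 against 24.1 RPKM (-0.19). Stat2 had 8.47 against 24.2 RPKM (-1.67) and Irf3 had 20.9 against 37.2 RPKM (-1.07). Irf8, a factor of immune cells, had 95.2 against 38.8 RPKM (1.005).

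Class I-like molecules encoded outside the H2 rule went both ways, with 5 of 11 kept genes 2-fold higher and 2 lower, beside 16.1% and 9.35% of all kept genes. Of the 5, Azgp1 was listed at 0 in mTEClo and so lies past 2-fold by construction. Among those above 0 in both libraries 4 of 10 were higher, beside 11.4% of all such genes. The median of the 11, 0.05, became -0.28 with a filter at a mean of 5 RPKM. Cd1d1 and Cd1d2, which present lipids, had 16.9 against 6.15 RPKM (1.09) and 4.41 against 0.0769 RPKM (2.31). Raet1e and Raet1d, ligands of the receptor NKG2D, had 5.30 against 0.263 RPKM (2.26) and 1.97 against 0.0620 RPKM (1.47). The mTEClo values of Cd1d2, Raet1e and Raet1d lie below the pseudocount of 1 RPKM, so their changes rest largely on it. Azgp1 had 2.65 RPKM in mTEChi and was listed at 0 in mTEClo. The lower genes were Fcgrt, the neonatal Fc receptor, with 11.9 against 34.04 RPKM (-1.71), and Mill2 with 0.988 against 4.54 RPKM (-1.71).

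The sort used surface MHC class II, so class II RNA is no independent comparison. Of 10 class II chains and partners 8 were 2-fold higher, beside 16.1% of all kept genes, with a median of 1.36. H2-Aa, a class II chain, stood at 4908 against 1524 RPKM. Within a library H2-Aa was 2.02 times H2-K1 in mTEChi and 0.921 times H2-K1 in mTEClo.

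**Figure D5:**
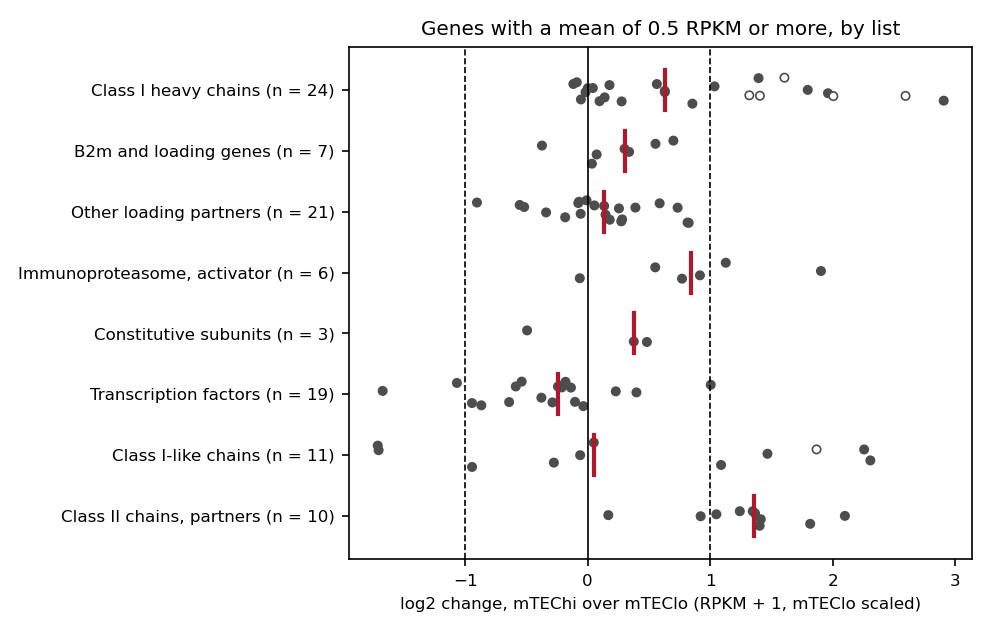
Log2 change, mTEChi over mTEClo, of kept genes in each list, with open circles for genes at 0 in mTEClo, red bars at list medians and dashed lines at 2-fold. B2m with the loading genes, the other loading partners and the constitutive proteasome subunits lie between the dashed lines, whereas class II medians reach 1.36 and heavy chains spread from -0.12 to 2.91.

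Markers of several cell types differed between the libraries, and class I genes are active in nearly all of these cells. Their counts stand beside the 16.1% higher and 9.35% lower of all kept genes. All 12 listed markers of thymic epithelial cells were above 0 in both libraries, with 5 of them 2-fold higher in mTEChi and 2 lower. Psmb11 was the scarcest of the 12, with 1.62 against 0.620 RPKM. The epithelial adhesion gene Epcam had 198 against 127 RPKM. Aire, the regulator of self antigen display, had 122 against 15.9 RPKM (2.61). The lower genes were the keratins Krt5, with 448 against 770 RPKM (-1.05), and Krt14, with 231 against 566 RPKM (-1.57). Dendritic cell and macrophage markers had 9 of 12 kept members 2-fold higher in mTEChi and summed to 567 RPKM there and 151 RPKM in mTEClo, of which Lyz2 alone made 493 and 133 RPKM. Cd209a, Flt3, Xcr1, Siglech, Clec9a and Fcgr1 were at 0 in mTEClo. In mTEChi, the deeper library, they had 1.56, 1.27, 0.598, 0.0981, 0.0976 and 0.0807 RPKM. Other members of the list were near even, with Itgax at 0.690 against 0.583 RPKM (-0.01) and Sirpa at 7.12 against 6.55 RPKM (-0.13). Mertk had 0.137 against 0.121 RPKM. B cell markers had 3 of 6 kept members higher and summed to 34.5 against 14.7 RPKM, with Cd79a, Ms4a1, Pax5 and Cd22 at 0 in mTEClo. Thymocyte markers had 3 of 17 higher, a share near that of all genes, and summed to 46.0 against 27.0 RPKM. Endothelial markers had 13 of 14 lower and summed to 61.0 against 363 RPKM, and fibroblast and pericyte markers had 12 of 15 lower and 1 higher and summed to 214 against 1051 RPKM. The part of such cells in the class I values was not tested, and in bulk RNA fewer cells of a type and less RNA per cell cannot be told apart.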

How the data were processed

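Poly(A) RNA of 2 sorted mTEC populations was sequenced without strand, 1 library a group. The deposited values are RPKM per RefSeq transcript line, as the authors made them. CASAVA, Bowtie 1.0.0 and bedtools, and the build mm9, appear in the submitters' processing notes with no role stated, and nothing is stated on reads that match several genes. Without strand, a gene and one that overlaps it on the other strand share reads. Of 30794 lines, 30216 were named through a RefSeq table and 180, H2-M2 among them, through GENCODE M21; 398 stayed unnamed. Changes, scaling, filter and threshold are given with the results. Depth was recovered from the steps of RPKM times GENCODE length: among transcripts with 1 to 10 reads, 75.9% in mTEChi and 65.5% in mTEClo lay within 0.1 of a whole read. The depth was chosen to bring such low counts closest to whole reads, so these shares are no independent check of it. Intervals are exact for independent reads (Poisson or conditional binomial), for the 34 genes with a length. Members and lists were chosen with earlier results of these data known. Every gene of the rule with a mean of 0.5 RPKM or more is named, and from each other list the genes past 2-fold and some of the most abundant; the genes past 2-fold in the class II and cell marker lists are given as counts. Tapbpl, Canx, Syvn1, Nlrc5 and Rela were named for their roles or as extremes, after their values were seen. The procedure was tested on simulated data. Alternatives were other pseudocounts, scalings, filters and line choices. Calculations ran under Python 3.11.15 with pandas 2.3.3, numpy 2.4.6, matplotlib 3.10.9 and scipy 1.17.1.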

Additional observations from a re-analysis of the deposited data

How the results depend on the processing

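No paired analysis was possible because each group has 1 library. Of the 36 genes, 24 stayed on the same side of 2-fold in each of 9 settings. The 12 others crossed it only with a pseudocount of 0.1 or 5 RPKM. Not every setting could move a gene. A filter cannot alter the change of a single gene, and no scaling can alter that of a gene at 0 in mTEClo. Line choice acts directly only on the 4 genes with several lines, and on the rest through the scaling factor. The count of class I genes 2-fold higher, 10, was 4 with a pseudocount of 5 RPKM, 4 with a filter at a mean of 5 RPKM and, chosen after seeing the data, 5 among genes above 0 in both libraries; it was 10 or 11 in the other settings, and the count of 2-fold lower genes was 0 in all. Their median of 0.55 became 0.33 with that pseudocount, 0.82 without scaling, 0.70 with the same RPKM sum, 0.23 with that filter and 0.29 among genes above 0 in both libraries. Without scaling the median of all kept genes moved from 0.03 to 0.25, 74.9% rather than 63.3% of genes past 2-fold were higher in mTEChi, and H2-K2, H2-Q4, H2-T10 and H2-T23 turned above 0 (0.18, 0.22, 0.14 and 0.26). With the same sum the share was 69.6%. Genes 2-fold higher in the other lists of the path, 16 in all, were 10 with a pseudocount of 5 RPKM. The ratio of the heavy chain to B2m quotients stayed between 0.719 and 0.736, and that of the class I shares between 1.43 and 1.49. Depth limits H2-M10.1, with 17 reads in mTEClo, and the genes listed at 0 there with few reads expected. Among the other lists, the median of the transcription factors, -0.24, was 0.01 without scaling and -0.11 with the same RPKM sum, and that of the class I-like chains, 0.05, was 0.29 without scaling and -0.28 with a filter at a mean of 5 RPKM.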
